A study of Rattus norvegicus with 11 samples.

Results

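The fibroblast and extracellular matrix genes Col1a1, Col1a2, Col3a1, Dcn, Lum, Fn1, Sparc, Postn and Mgp were followed in the trigeminal ganglion (TRG) of the rat. They were taken as the probes whose RefSeq accession on the array belongs to a listed gene, and the rule itself uses no measured value. Of the 9 listed genes, 8 had such a probe, out of 13903 genes matched to a RefSeq symbol and 24684 probes in all, and Col1a1 was not analysed here. Male Wistar rats received 50 µl of complete Freund's adjuvant (CFA, killed mycobacteria in paraffin oil, 1 mg/ml) under the skin of the whisker pad on 1 side, under ketamine and xylazine anaesthesia, and ganglia were taken on day 7. The CFA (ipsilateral) group comprised 6 ganglia, from rats 1, 2, 3, 5, 6 and 8. The contralateral group comprised 5 ganglia, from rats 1, 2, 3, 5 and 6. Rat numbers are those of the samples, and arrays with the same number were taken to come from the same animal. Contralateral ganglia came from the same injected animals, so every ganglion came from a rat that had received the anaesthetic and the adjuvant, and no saline-injected or naive animal was on the arrays. RNA was labelled with Cy3 by random priming and hybridised to a rat lncRNA and mRNA array of Agilent type with 1 colour, 1 array for each ganglion.

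Matrix genes of this kind are read mainly in fibroblasts, which in a ganglion lie in the capsule, the connective tissue around nerve fibres and the sheaths of blood vessels. Type I and type III collagens form the fibrils, small leucine-rich proteoglycans such as decorin and lumican bind the fibrils and limit their width, and fibronectin links the matrix to integrins on cells. SPARC and periostin are secreted proteins that act on collagen assembly and on cells rather than as the main scaffold, and matrix Gla protein inhibits calcification. Activated fibroblasts in inflamed or injured tissue raise many of these genes together, under transforming growth factor beta among other signals.

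All values below are log2 signals after quantile normalisation, so that 1 unit is a 2-fold difference, and they are compared between arrays for 1 gene and never between genes. The arrays had median processed signals of 74.6 to 117 on the CFA side and 87.9 to 96.4 on the contralateral side, with 68.9 to 82.3% and 71.6 to 82.8% of spots well above background. They lay on 5 slides scanned on 3 days. Slide 2, the only slide with both sides, held rat 1 from the CFA side together with rats 5 and 6 from the contralateral side. Slides 1 and 3 held contralateral arrays alone (rat 3 on slide 1, rats 1 and 2 on slide 3), slides 4 and 5 held CFA arrays alone (rats 2 and 3 on slide 4, rats 5, 6 and 8 on slide 5). Slides 1, 2 and 3 were scanned on the first day, slide 4 on the second and slide 5 on the third, so that side and slide were largely tied together. A call required an unadjusted p of 0.05 or less in limma and an absolute fold change over 2. By that rule 498 of 24684 probes, or 2.02%, were called, 1.15% higher and 0.863% lower on the CFA side. At an adjusted p of 0.05 or less 0 probes were called in limma, against 2659 (10.8%) at an unadjusted p of 0.05 or less.

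All 8 matrix probes were well above background on all 11 arrays. Each was read by 1 spot. None of the 8 was called, against 2.02% of all probes, and the sides overlapped for all 8, with non-overlapping sides in 1.19% of all probes. In a whole ganglion, the number of fibroblasts and the RNA of each fibroblast cannot be told apart.

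Promoter sequence was matched for 4 of the 8 genes (RefSeq, build GRCr8), and stretches of 110 bases are printed for Col1a2 and Sparc, because across the arrays these 2 genes followed different groupings, described further on. Capitals mark matches to a TATA box (TATAAA), to a CCAAT box (the letters of its name) and to a purine-rich repeat unit (GGAGG), each searched on both strands. Adjoining GGAGG matches run together. The Col1a2 stretch is chr4:33518307-33518416 on the plus strand, 250 to 141 bases before the annotated start. The Sparc stretch is chr10:40038877-40038986, read on the minus strand, 170 to 61 bases before the start.
Col1a2: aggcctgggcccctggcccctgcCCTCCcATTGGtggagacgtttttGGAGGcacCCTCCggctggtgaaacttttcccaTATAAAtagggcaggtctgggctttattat
Sparc: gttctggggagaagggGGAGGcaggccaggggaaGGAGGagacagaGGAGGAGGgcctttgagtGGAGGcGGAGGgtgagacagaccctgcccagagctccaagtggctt
Over the 250 bases before the start, Col1a2 held 1 match to TATAAA, 1 to CCAAT and 6 to GGAGG, and Sparc held 0, 0 and 7. The 250-base Lum window held 0, 1 and 1 match and the Postn window 1, 0 and 2. These windows, chr7:34245456-34245705 and chr2:140677811-140678060 on the plus strand, lay past the annotated gene starts at 34245323 and 140677774. Among 33469 rat promoters of that length, 12.9% held TATAAA, 34.0% CCAAT and 64.7% GGAGG, so a match to GGAGG was common everywhere. These matches describe the letters only.

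The side means of the fibrillar collagens lay within the spread of the arrays. Col1a2, the alpha 2 chain of type I collagen, read 15.88 at its lowest, 16.40 at the median and 16.66 at its highest on the CFA side. Its contralateral arrays read 16.41, 16.58, 16.05, 15.97 and 16.59 for rats 1, 2, 3, 5 and 6. Both sides thus ran over nearly the same span, with the CFA array of rat 1 lowest and the CFA array of rat 6 highest. The sides differed by 0.03 on the log2 scale (SE 0.17; limma adjusted p = 0.953), and 3 of 5 rats were higher on the CFA side. Col3a1, the single chain of type III collagen, ran from 15.92 through a median of 16.48 to 16.74 on the CFA side. Contralateral values for rats 1, 2, 3, 5 and 6 were 16.35, 16.45, 15.96, 16.20 and 16.86. Rat 6 again had the highest array of each side and the CFA array of rat 1 the lowest of all. The log2 fold change of Col3a1 was 0.09 (SE 0.18; limma adjusted p = 0.843), and only 2 of 5 rats were higher on the CFA side.

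The same held for the proteoglycans of the collagen fibril. Dcn, which encodes decorin, read from 15.50 through a median of 15.64 to 16.19 on the CFA side. The contralateral arrays of rats 1, 2, 3, 5 and 6 read 15.42, 15.20, 15.94, 15.80 and 16.18. The CFA array of rat 3 stood above the rest of its side, while the contralateral values spread over a wider range. The side means were both 15.71 (SD 0.25, n = 6, and 0.39, n = 5), and 95% limits of the fold change were 0.751 and 1.33. Lum, which encodes lumican and neighbours Dcn on chromosome 7 in the RefSeq annotation, read from 14.07 through 14.69 to 15.11 on the CFA side. Contralateral Lum read 14.68, 14.53, 14.74, 14.65 and 15.10 for rats 1, 2, 3, 5 and 6. The CFA arrays of rats 1 and 2 lay below every contralateral array and that of rat 8 lay just above them all. The log2 fold change was -0.11 (SE 0.20; limma adjusted p = 0.824), with 1 of 5 rats higher on the CFA side.

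Among the adhesive glycoproteins, Fn1, the fibronectin gene, read from 12.83 through 13.14 to 13.57 on the CFA side. Contralateral Fn1 read 13.15, 13.17, 12.96, 13.15 and 13.86 for rats 1, 2, 3, 5 and 6. The first 4 rats lay close together and rat 6 stood above them. Fn1 had a log2 fold change of -0.07 (SE 0.18; limma adjusted p = 0.885). Postn, which encodes periostin, a protein of periosteum, tendon and remodelling connective tissue, had the widest span of the 8 genes. On the CFA side it read from 10.19 through 10.84 to 12.75, the highest value again belonging to rat 6. Contralateral Postn read 10.77, 11.03, 11.06, 10.79 and 12.21 for rats 1, 2, 3, 5 and 6. The ganglia of rat 6 therefore stood apart on either side, and the remaining 9 arrays lay between 10.19 and 11.06. Over all 11 arrays Postn covered a 5.89-fold range, whereas the other 7 genes covered 1.71-fold to 2.07-fold. Postn differed by -0.18 on the log2 scale, with the largest error of the set (SE 0.44; limma adjusted p = 0.877).

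Sparc, the collagen-binding glycoprotein also called osteonectin, read from 16.16 through 16.53 to 17.10 on the CFA side. Contralateral Sparc read 16.15, 16.05, 16.94, 16.70 and 16.82 for rats 1, 2, 3, 5 and 6. The values of each side fell into a low and a high set with a gap between 16.28 and 16.70. The side means of 16.60 (SD 0.45, n = 6) and 16.53 (SD 0.40, n = 5) differed by 0.06 (SE 0.24; limma adjusted p = 0.924). Mgp, which encodes matrix Gla protein, read from 15.65 through 15.89 to 16.64 on the CFA side. Contralateral Mgp read 16.40, 15.84, 15.83, 15.84 and 16.65 for rats 1, 2, 3, 5 and 6. A high set of 4 arrays lay above the other 7, made up of both ganglia of rat 6, the CFA ganglion of rat 8 and the contralateral ganglion of rat 1. Mgp had a log2 fold change of -0.06 (SE 0.23; limma adjusted p = 0.920).

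**Figure D1:**
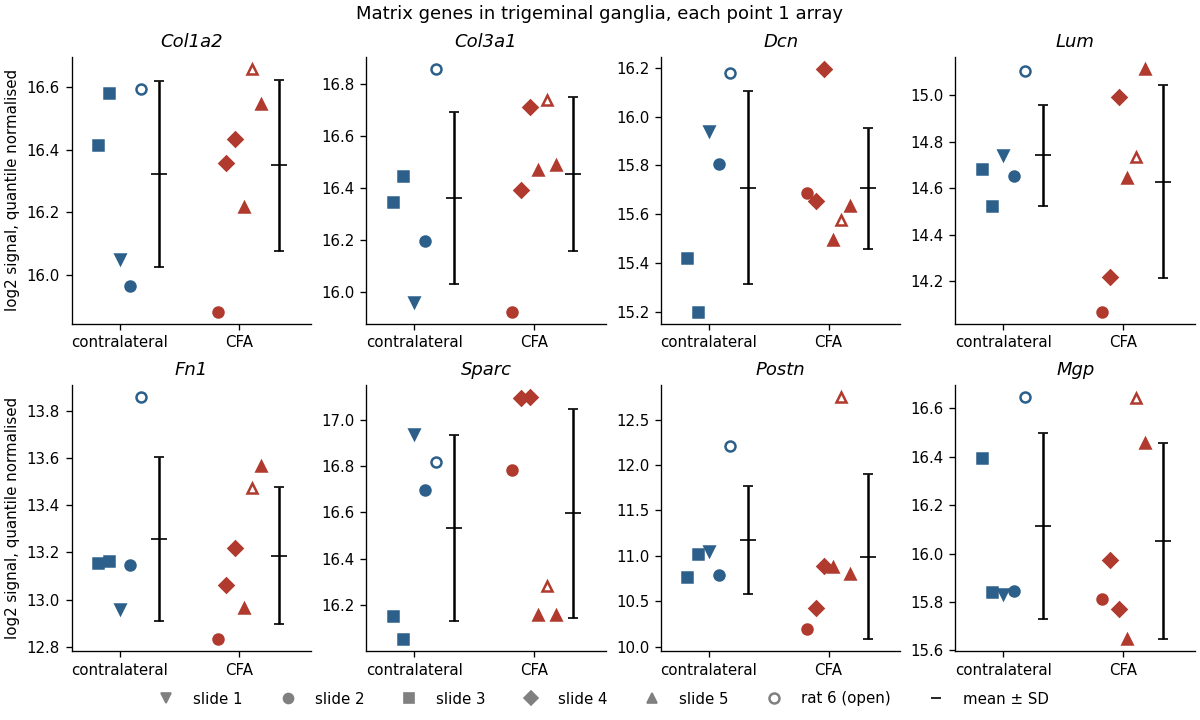
Quantile-normalised log2 signal (y axis) of the 8 matrix genes in each contralateral and CFA array, 1 point an array, the marker shape giving the slide, open markers rat 6, and the bar the mean with its SD. The sides overlap for every gene, the open markers of Postn stand apart from all others, and Sparc forms a high and a low set that follow the marker shape.

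Over the set, 3 genes had a log2 fold change above 0 and 5 below, with a median of -0.03, beside -0.04 over all 24684 probes. All 8 were within 0.20 of 0, as were 56.7% of all probes. Exact permutation tests over the 462 divisions of 11 arrays into 6 and 5, two-sided, gave p from 0.563 for Lum to 0.996 for Dcn, where 0.00216 was the smallest p possible. These arrays bounded the change rather than showing its absence. For the 7 genes other than Postn, the 95% limits of the fold change lay between 0.678 and 1.52, so a 2-fold change in either direction lay outside them. For Postn the limits were 0.453 and 1.72, which left room for a fall of 2-fold. The limits treat the 11 arrays as independent and take no account of slide.

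Within slide 2, where a CFA array (rat 1) stood beside contralateral arrays of other animals (rats 5 and 6), 7 of the 8 genes were lower in the CFA array. The differences were -0.40 for Col1a2, -0.60 for Col3a1, -0.30 for Dcn and -0.81 for Lum. They were -0.67 for Fn1, -1.30 for Postn and -0.43 for Mgp, while Sparc differed by 0.03. This comparison rests on a single CFA array, from another rat than the controls, and one of the controls was rat 6. With slide as a fixed term in limma, which reduces to the same comparison, none of the 8 reached the threshold, and the lowest unadjusted p over all settings tried was 0.0566. Slide and side cannot be told apart on the other 4 slides.

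**Figure D2:**
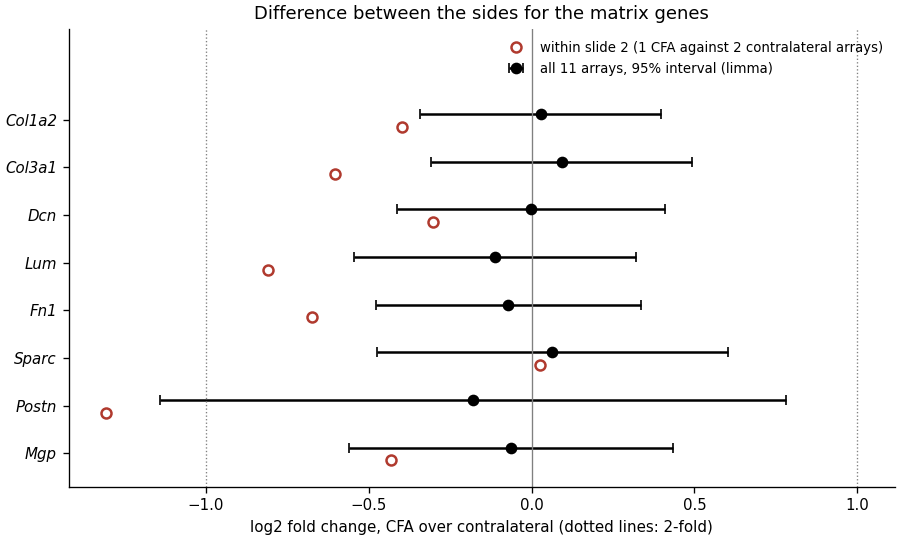
Log2 fold change of CFA over contralateral (x axis) for each matrix gene. Filled points give limma estimates from 11 arrays with 95% intervals, open points the difference within slide 2 with no interval. All filled points lie within 0.20 of 0, and 7 of the 8 open points lie at -0.30 or lower.

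What separated the arrays differed between the genes. Slide means accounted for 98.6% of the variance of Sparc, against a median of 67.7% over the 17495 probes well above background on every array, and 180 of those probes had a share as large. Sparc read 16.94 on slide 1, 16.70 to 16.82 on slide 2 and 17.09 to 17.10 on slide 4, but 16.05 to 16.15 on slide 3 and 16.16 to 16.28 on slide 5. The high and low sets thus each contained arrays of both sides and of more than 1 scan day. The deviations of 149 probes within 10 rows and columns of the Sparc spot had medians of -0.22 to 0.23 over the 11 arrays. This was the widest such span of the 8 genes. A median over many probes is expected to vary less than 1 probe, so it cannot be set against the span of Sparc. Whether slide, or handling that went with it, produced the levels of Sparc was not tested. Dcn had 66.6% of its variance between slides, and Col1a2 and Col3a1 had 41.7% and 37.4%. For Lum, Fn1, Postn and Mgp the share was only 10.2 to 16.7%. The 5 slide means take up 4 of 10 degrees of freedom, or 40.0%, so that only Sparc and Dcn lay well above that level. Dcn, at 66.6%, was nevertheless close to the median probe at 67.7%.

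Rats were identified by the sample numbers alone. Deviations from the side means correlated by only -0.09 to 0.20 within same-numbered pairs. The same-numbered array was the best match on the other side for 0 of the 5. For 6 of the 8 genes the rat, as numbered, took a larger share than the slide. Rat means took 90.9% of the variance of Postn, 85.9% of Mgp and 80.1% of Fn1, against a median of 45.6% over the same probes and 50.0% of the degrees of freedom. The share was 69.2% for Lum, 62.5% for Col1a2, 57.1% for Dcn, 53.5% for Col3a1 and 38.0% for Sparc. For Postn, 271 of the 17495 probes had a share as large. Rat 6, singled out after its values were seen, had its 2 ganglia above all 9 others for Col1a2, Col3a1, Postn and Mgp, that is for 4 of the 8 genes, as did 392 probes or 2.24% of those 17495. Its arrays lay on slides 2 and 5 and were scanned on different days. The spread of the genes over the 11 arrays, as SD of log2 signal, was 0.27 to 0.41 apart from Postn at 0.75, beside 0.26 for the median probe.

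**Figure D3:**
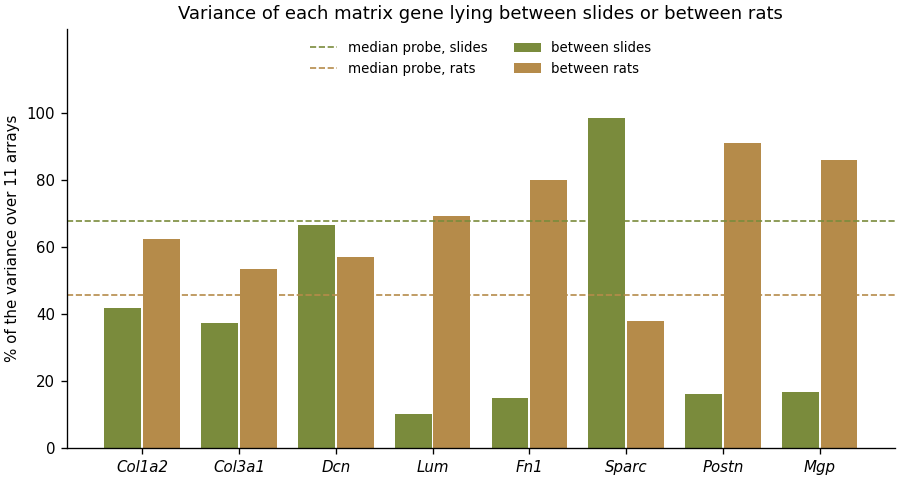
Share of the variance over 11 arrays (y axis, %) lying between the 5 slides and between the 6 rats for each matrix gene, with dashed lines at the medians of 67.7% and 45.6% over 17495 probes. Sparc is highest for slide, whereas Postn, Mgp and Fn1 are highest for rat.

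The covariation of the genes was then examined. Values of Sparc, Postn and Mgp fell into sets separated by a wide gap (39.4, 45.0 and 42.3% of their range). Correlations over all 11 arrays are therefore given mainly for the 10 pairs of Col1a2, Col3a1, Dcn, Lum and Fn1. Of these, 9 were positive, with a median Pearson r of 0.58, which was 0.38 when arrays were scaled to their 75th percentile in place of quantile normalisation. P values are from 100000 permutations, two-sided, adjusted over all 28 pairs of the 8 genes. The ganglia came from 6 rats and share slides, so the arrays are not fully independent and these p values are likely too small. Col1a2 and Col3a1, whose products form mixed fibrils, had r = 0.85 and Spearman's rho = 0.86 (permutation p = 0.00087 and 0.00109; adjusted 0.0231 and 0.00938). Without the 2 arrays farthest from the Col1a2 median r was 0.78. Fn1 followed Col3a1 with r = 0.78 and rho = 0.85 (permutation p = 0.0047 and 0.00134; adjusted 0.0329 and 0.00938), and r was 0.69 without the 2 farthest arrays. Fn1 followed Col1a2 with r = 0.74 and rho = 0.88 (permutation p = 0.00878 and 0.00067; adjusted 0.0410 and 0.00938), and r was 0.76 without them. Lum and Fn1 had r = 0.75 and rho = 0.71, but only r passed after adjustment (permutation p = 0.00822 and 0.0177; adjusted 0.0410 and 0.0992). Within the 6 arrays of the first scan day the first 3 pairs had r = 0.87, 0.95 and 0.71 in the same order. Over the 9 arrays without rat 6 they had r = 0.80, 0.61 and 0.70.

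Decorin had lower correlations with the other genes of these 10 pairs when arrays were pooled. Its r was -0.13 with Col1a2, 0.20 with Col3a1, 0.32 with Fn1 and 0.44 with Lum, all with adjusted permutation p of 0.283 or more. With Sparc, whose 2 sets followed slide, r was 0.78 over the 11 arrays and 0.36 as deviations from slide means. After each slide's mean was subtracted, which was decided after seeing the data, Dcn had r = 0.92 with its neighbour Lum, 0.78 with Col3a1, 0.72 with Fn1 and 0.62 with Col1a2. All 28 pairs of the 8 genes were then positive, with a median of 0.68 and a range of 0.07 to 0.95, Sparc giving the lowest values (0.07 to 0.70). These deviations use 11 arrays from 5 slides, and the contralateral array of rat 3, alone on its slide, adds nothing. Without the arrays of rat 6 the median fell to 0.40, 21 of 28 pairs were positive, and Dcn with Lum was at 0.88. Among the pairs that passed when pooled, Col1a2 with Col3a1 fell from 0.90 to 0.42 and Col3a1 with Fn1 from 0.87 to 0.49, while Col1a2 with Fn1 went from 0.95 to 0.89. Among the 5 genes without separate sets, all 10 pairs stayed positive, with a median of 0.63. Without rat 6 no slide holds more than 2 arrays, and the 2 deviations of a slide mirror each other. These r therefore rest on very few independent values.

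Within the larger sets of the split genes, relations were looser. Postn, over the 9 arrays other than rat 6, had r = 0.72 with Lum, 0.40 with Col1a2, 0.34 with Col3a1, 0.35 with Fn1 and -0.0031 with Dcn. Mgp, over its 7 lower arrays, had r of -0.44 to 0.17 with the 5 unsplit genes. Sparc, over its 6 higher arrays, had r of -0.10 to 0.51 with them. None of these was tested, as the sets were read from the values.

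**Figure D4:**
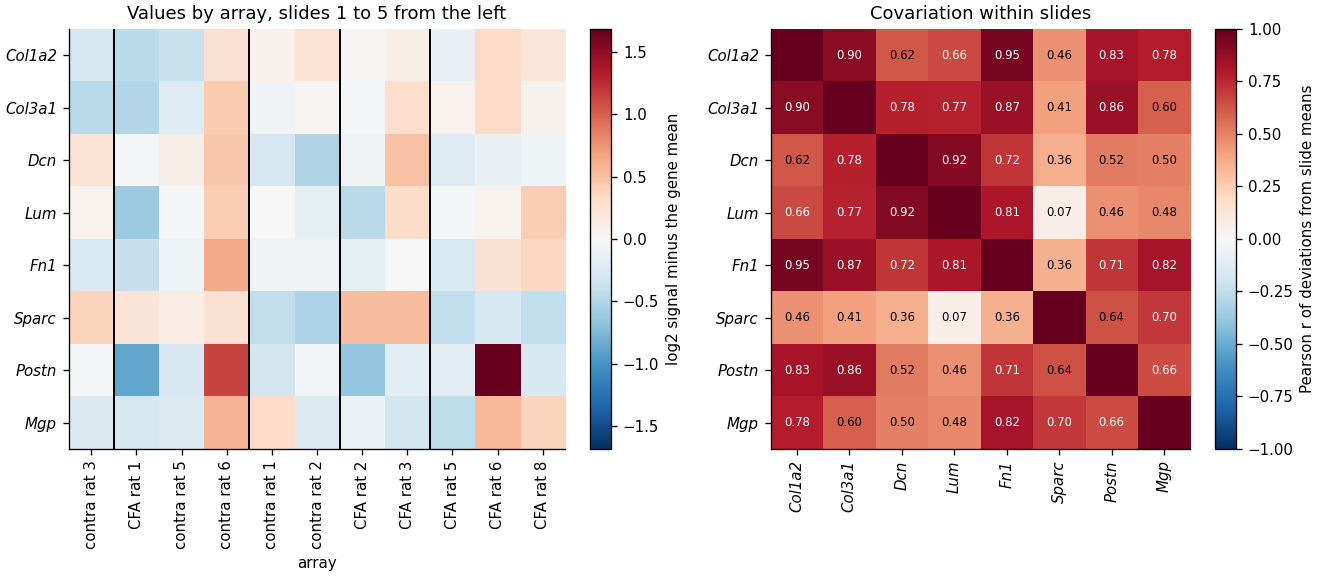
Left, log2 signal minus the gene mean (colour) for each matrix gene and array, arrays ordered by slide with black lines between slides. Right, Pearson r of deviations from slide means for each pair of genes. Both arrays of rat 6 are red for most genes, Sparc changes colour with slide, and all 28 pairs on the right are positive.

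Across 11089 genes well above background on every array, the pattern most like the mean centred level of the 8 matrix genes was that of Cd36, the fatty acid translocase and scavenger receptor of microvessels, macrophages and adipocytes (Pearson r = 0.91 over 11 arrays). The mean is not scaled by spread, so genes of wide spread such as Postn count more in it. Its r with single members ran from 0.09 for Sparc and 0.51 for Dcn to 0.91 for Fn1. Ybx3, a cold shock domain protein, and Cthrc1, a secreted protein of activated fibroblasts, each had r = 0.89. Then came Wfdc1, a protease inhibitor, with 0.88, Plac8 and Rag1 with 0.87, Tmem123 with 0.87, and Cd53, Mcpt10 and Ahsp with 0.86, 0.86 and 0.85. Several of these are blood-lineage genes: Rag1 is the recombinase of developing lymphocytes, Cd53 a leukocyte tetraspanin, Mcpt10 a mast cell protease and Ahsp the chaperone of alpha haemoglobin in erythroid cells. Rat 6 had the top 2 arrays for 9 of the 10. The choice of genes largely fixed this, because the mean centred level they were ranked against was itself highest in rat 6. That level was 0.52 and 0.35 in its contralateral and CFA arrays and at most 0.15 in the others. For Rag1 its ganglia read 7.36 on the CFA side and 7.41 on the contralateral side, and the other 9 arrays 3.73 to 6.60. For Ahsp they read 14.94 and 15.29, the others 12.50 to 14.13. For Mcpt10 they read 12.92 and 13.20, the others 9.87 to 12.05. Without rat 6 the 10 genes had r of 0.55 to 0.79. The most opposite patterns were those of Adcy5, an adenylyl cyclase, at -0.95, Cpn1, a subunit of carboxypeptidase N, at -0.92, and Rgs8, Kctd9 and Stk32c at -0.87. None of the 15 genes was called between the sides, with adjusted limma p of 0.677 or more, and the ranking is a description of these arrays with no test.

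The other matrix genes were taken from 9 lists by role, of which 98 of 142 genes had a probe. Of these, 1 was called higher and 0 lower, against 1.15% and 0.863% of all probes. At an unadjusted p of 0.05 or less, 3 were higher and 2 lower, against 10.8% of all probes. The log2 fold change was above 0 for 35 and below 0 for 63, with a median of -0.07, and it was below 0 for 57.5% of all probes. Among the 92 well above background on every array, 13 had the 2 arrays of rat 6 above all others, or 14.1% against 2.24% of probes.

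Other collagens gave no call. The list of fibrillar collagens had 4 of 8 genes measured, with a median of 0.03, and Col5a1, a regulator of fibril nucleation, was at 0.21 (SE 0.16), Col11a2 at 0.08 (SE 0.23) and Col5a3 at -0.03 (SE 0.11). Of the other interstitial collagens 2 of 8 were measured, Col8a1 at -0.40 (SE 0.39) and Col14a1 at 0.07 (SE 0.13). In basement membranes, the sheets around vessels, Schwann cells and satellite cells, 6 of 18 genes were measured with a median of 0.01. Lamb1, a laminin chain, was at -0.44 (SE 0.16; limma unadjusted p = 0.0199, adjusted 0.420), under the 2-fold limit and well above background on 10 arrays only. Col4a1 was at 0.18 (SE 0.09) and Lamb2 at -0.18 (SE 0.11).

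The small leucine-rich proteoglycans related to decorin and lumican had the lowest median of the 9 lists, -0.39, with 8 of 9 genes below 0, and none of them called. Prelp, a heparin-binding member, was at -0.27 (SE 0.12; limma unadjusted p = 0.0517, adjusted 0.466), Omd, the bone keratan sulfate proteoglycan, at -0.80 (SE 0.42) and Chad, of cartilage, at -0.63 (SE 0.34). Rat 6 had the top 2 arrays for 5 of the 9, namely Bgn, Fmod, Kera, Aspn and Omd. Omd on the CFA side ran from 9.97 to 11.82, the highest being rat 6. Contralateral Omd read 11.15, 11.67, 11.59, 10.03 and 12.38 for rats 1, 2, 3, 5 and 6. The contralateral arrays of slides 1 and 3 were thus high, whereas both slide 2 arrays other than rat 6 were near 10.

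Of the other matrix glycoproteins, 16 of 24 were measured, with 5 above 0 and 11 below. Fbln5, an elastic fibre protein, was at -0.20 (SE 0.08; limma unadjusted p = 0.0284, adjusted 0.435) but at 0.02 within slide 2. Ccn2, a target of transforming growth factor beta also known as connective tissue growth factor, was at -0.55 (SE 0.32) and Mfap5, of microfibrils, at -0.21 (SE 0.13). Enzymes and chaperones of collagen processing had 20 of 26 genes measured and a median of -0.08. Ppib, a prolyl isomerase of the endoplasmic reticulum, was at 0.29 (SE 0.12; limma unadjusted p = 0.0369, adjusted 0.449) and at -0.13 within slide 2, Crtap at -0.18 (SE 0.12) and Colgalt1 at -0.15 (SE 0.09). Serpinh1, the collagen chaperone HSP47, was at 0.00 (SE 0.10).

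Proteases and their inhibitors had 17 of 18 genes measured, a median of -0.06 and no call. Mmp3, stromelysin, was at 0.59 (SE 0.32), Mmp2, a gelatinase, at -0.30 (SE 0.17) and Fap, a peptidase of activated fibroblasts, at -0.28 (SE 0.17). Among matrix receptors 11 of 16 were measured, and the only call of all lists was Ddr1, a receptor tyrosine kinase that binds collagen. On the CFA side Ddr1 read 4.60, 6.54, 7.08, 6.41, 6.02 and 4.39 for rats 1, 2, 3, 5, 6 and 8, and on the contralateral side 4.04, 5.48, 3.78, 4.48 and 5.03 for rats 1, 2, 3, 5 and 6. The sides overlapped, with the CFA arrays of rats 1 and 8 inside the contralateral range. The log2 fold change was 1.28 (SE 0.52; limma unadjusted p = 0.0327, adjusted 0.444), it was -0.16 within slide 2, and the call was lost without any one of 5 arrays. Sdc1, a syndecan, was at 0.59 (SE 0.34) and Mrc2, a collagen uptake receptor well above background on 9 arrays, at 0.48 (SE 0.26).

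The transforming growth factor beta pathway had 13 of 15 genes measured, with 4 above 0, 9 below and a median of -0.14. Tgfbr2, the ligand-binding receptor, was at 0.60 (SE 0.26; limma unadjusted p = 0.0432, adjusted 0.458), Tgfbr3 at -0.26 (SE 0.15) and the inhibitor Smad7 at -0.17 (SE 0.08). The ligands Tgfb1, Tgfb2 and Tgfb3 were at 0.24 (SE 0.38), 0.05 (SE 0.14) and -0.26 (SE 0.16).

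**Figure D5:**
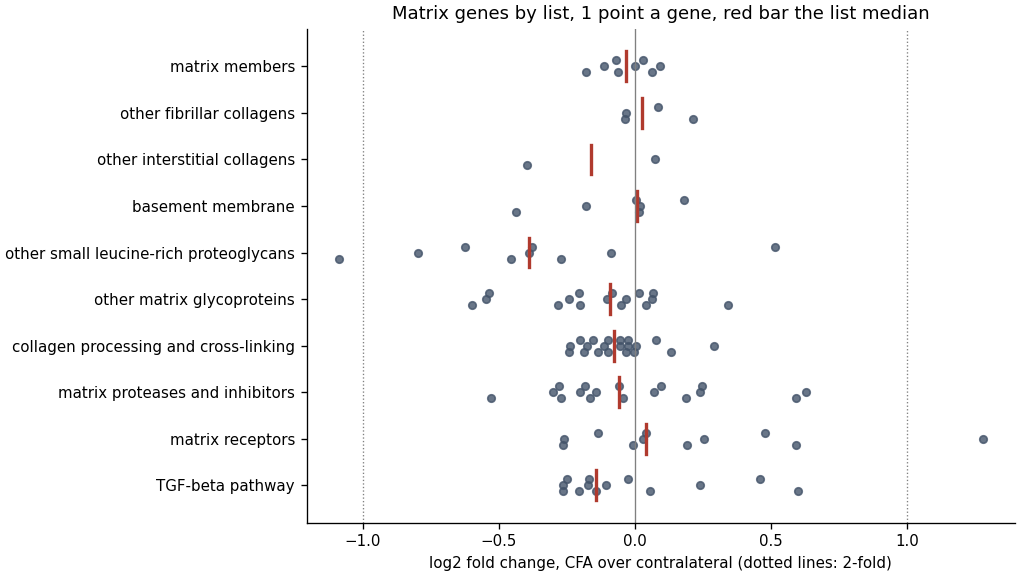
Log2 fold change of CFA over contralateral (x axis) for the matrix genes and 9 lists of other matrix genes, 1 point a gene and a red bar at each list's median. All 8 matrix genes lie within 0.20 of 0, the proteoglycans lie mostly left of 0, and Ddr1 at 1.28 is the only gene past 2-fold that was called.

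The label of the set was checked against a list of fibroblast identity genes outside the matrix. Of 16 such genes 14 were measured and 13 were well above background on every array, among them Pdgfra and Prrx1, and Cd34 was so on 5 arrays. They included 1 gene at an unadjusted p of 0.05 or less, Thy1, at 0.87 (SE 0.36; limma unadjusted p = 0.0343, adjusted 0.447), a surface protein that sensory neurons also carry, which was at -0.35 within slide 2. Their summed signal ranged from 381990 to 453527 on the CFA side and from 351408 to 425219 on the contralateral side. That sum is weighted towards its brightest genes, such as Vim and S100a4. Across the 11 arrays the mean centred level of the list had r = 0.70 with that of the 8 matrix genes, and 0.74 without rat 6. Single genes ran from 0.79 for Twist1 to -0.18 for Cd34. Pdgfra was at 0.35 and Prrx1 at 0.38, whereas Tcf21, Twist2, Pdpn and S100a4 were at 0.06, 0.08, -0.06 and -0.03.

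Other cell types moved with the mean centred level of the matrix genes, which Sparc hardly followed, to different degrees over the 11 arrays. Several of these relations depended on rat 6. Red blood cell genes (4 of 5 measured) had r = 0.81 with the matrix genes, and 0.45 without rat 6. Their summed signal was 202483 to 315795 on the CFA side and 229035 to 360520 on the contralateral side. Rat 6 had the top 2 arrays for Hba-a1, Alas2 and Slc4a1, but not for Hbb, the brightest of the 4. Hbb read 17.40 (CFA) and 17.56 (contralateral) in rat 6 and 17.23 to 17.75 in the other arrays. Its r with the matrix genes was 0.18. Mural cell genes had r = 0.79 (0.61 without rat 6), satellite glia genes 0.60 (0.61) and sensory neuron genes -0.61 (-0.50). Schwann cell genes had r = 0.24 (0.55 without rat 6), endothelial genes 0.41 (0.11), macrophage genes 0.28 (0.035) and skeletal muscle genes -0.23 (-0.62). Among tissues that also make matrix, the sign turned without rat 6 for leptomeningeal genes, from -0.24 to 0.55, and for cartilage and bone genes, from 0.34 to -0.065, and perineurial genes went from 0.01 to 0.47. Leptomeningeal genes summed to 48587 to 198485 on the CFA side and 66743 to 167728 on the contralateral side. The cartilage gene Acan was well above background on 2 of 11 arrays and Bglap, the osteocalcin gene, on all 11. Anterior pituitary genes, from a tissue that adjoins the ganglion, had the widest span, 4223 to 307710 on the CFA side and 2857 to 107393 on the contralateral side, with r = 0.47 (0.26 without rat 6).

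Adipocyte genes had the lowest median log2 fold change of the cell type lists, -1.07, with all 4 measured genes of 5 below 0 and r = 0.39 with the matrix genes (-0.26 without rat 6). Lep, the leptin gene, was called lower on the CFA side but only 3 arrays, all contralateral, read it well above background. Adipoq was at -1.20 (SE 0.56), Fabp4 at -0.94 (SE 0.54) and Cidec at -0.46 (SE 0.16; limma unadjusted p = 0.0160, adjusted 0.404). Within slide 2, with rat 6 among the contralateral arrays, Lep was at 0.14, Adipoq at -1.58, Fabp4 at -1.12 and Cidec at -0.32. Their summed signal was 324 to 671 on the CFA side and 414 to 1373 on the contralateral side. The part of adjoining tissue or blood in the levels of the matrix genes was not tested.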

How the data were processed

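RNA of 11 TRG was read on 1-colour arrays. The deposited intensities are scanner signals that were background-subtracted and spatially detrended, with a design built on rn4 (per the file headers), by Agilent Feature Extraction 11.0.1.1, and were not normalised between arrays. The deposited value table holds the authors' quantile-normalised signal on a linear scale, 1 value a probe (median 184.67 on every array, r of 0.9993 to 0.9998 with the same array here), and served as an alternative. Processed signals of 42136 non-control spots were taken as log2, outlier spots (1.38%) left out, quantile normalised and averaged to 24684 probes, then fitted in limma 3.58.1 (R 4.3.3) with side as the only term and Benjamini-Hochberg adjustment over all probes. The fit was tested on simulated data. Depth does not apply to arrays, whose number limits the precision.

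Members and lists were chosen with earlier results of these data known. Named are every member, the 3 smallest p of each list, and the 10 most like and 5 most opposite genes. The highest probe stood for a gene. Same-numbered arrays were taken to come from the same rat, and the pairing rests on these numbers. Deviations from the side means correlated by -0.09 to 0.20 within rats, over 0.1 in 1 of 5. The same-numbered array was the best match on the other side for 0 of the 5. Rat was a block as an alternative. Further alternatives were slide, scan day, scaling, background (normexp and none, on the median spot signal, as no mean signal was in the files used here), dim probes, a floor, outlier spots, an intensity trend and each array left out.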

Additional observations from a re-analysis of the deposited data

Results flagged for a closer look

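A lone array stood apart within its side in 4 of the 16 groups examined (8 genes on 2 sides). The nominal rate for a single group is about 1 in 20. The genes covary and share rats, so the groups are not independent and the count was not tested against chance. Postn read 12.7536 in the CFA ganglion of rat 6, against 10.19 to 10.89 in the other 5 CFA arrays. It read 12.2074 in the contralateral ganglion of the same rat, against 10.77 to 11.06 in the other 4. Fn1 read 13.8627 in the contralateral ganglion of rat 6, against 12.96 to 13.17 in the other 4. Dcn read 16.1949 in the CFA ganglion of rat 3, against 15.50 to 15.69 in the other 5.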

How the results depend on the processing

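None of the 8 genes was called under any of the 26 alternatives that refit the sides, and the smallest of their 208 unadjusted p was 0.0566, for Lum with scan day as a block. Of these 208 fold changes 41 changed sign. With rat as a replicate block Col1a2 was at -0.012 and Dcn at 0.013, and the block changed no call. With slide as a fixed block the median of the 8 genes moved from -0.03 to -0.52, Col1a2 to -0.40 and Col3a1 to -0.60. With scan day as a block the median was -0.43, Col1a2 -0.44 and Col3a1 -0.44. These blocks leave 1 CFA array beside contralateral ones. With slide as a random effect Col1a2 was at -0.089 and Col3a1 at -0.084. With 75th percentile scaling Col1a2 was at -0.084, Col3a1 at -0.031 and Sparc at -0.019. With normexp Col1a2 was at -0.0562, Dcn at 0.106 and Fn1 at 0.0017, and without background correction they were at -0.0564, 0.106 and 0.0020. Without both arrays of rat 6, chosen after seeing the data, Dcn was at 0.14 and Fn1 at 0.022. The cause was not tested.

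The single call of the 9 lists, Ddr1, became 0 calls with either form of slide block, scan day, normexp, no background correction, or without rat 6. Leaving out 1 array at a time gave 0 to 1 calls, being 0 without the CFA arrays of rats 2, 3 and 5 or the contralateral arrays of rats 1 and 3.

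Leaving out 1 array, the median of the 8 genes ran from -0.11 to 0.088, Col1a2 from -0.061 to 0.12, Col3a1 from -0.0072 to 0.22, Dcn from -0.13 to 0.12, Lum from -0.21 to -0.0011, Fn1 from -0.15 to 0.080, Sparc from -0.056 to 0.17, Postn from -0.53 to 0.080 and Mgp from -0.18 to 0.072. The median r of the 10 pairs ran from 0.49 to 0.66, and was 0.38 with 75th percentile scaling.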
